A study of Homo sapiens with 12 samples.

Results

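The 37 genes described here belong to the NF-kB pathway: 5 subunits of the transcription factor, 6 inhibitors and IkB-like regulators, 6 signalling and survival proteins, 7 chemokines, 6 cytokines, 4 surface proteins and 3 enzymes. They were taken as a list of symbols and matched to Ensembl gene identifiers, and all 37 had a row among the 61552 genes of the deposited count table. The study sequenced mRNA from cultured human neuroblastoma cells, a tumour of the sympathetic nervous system, in 12 libraries. Its 4 groups of 3 libraries were SK-N-BE(2) with ML210, SK-N-BE(2) control, SK-N-AS with ML210 and SK-N-AS control. ML210, given overnight, binds and blocks GPX4, an enzyme that removes oxidised lipids from membranes. The series' design calls SK-N-BE(2) MYCN-amplified and SK-N-AS MYCN-nonamplified, so that each MYCN status was represented by 1 established cell line. All groups carried the genotype label WT, and the sources used here give neither the dose of ML210 nor the treatment of the control cells. Each library has a batch number of 1, 2 or 3, the same as its replicate number. Whether the batches were separate cultures is not stated, and p-values therefore reflect the spread between libraries, which may be technical.

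NF-kB is a family of dimeric transcription factors that IkB proteins hold in the cytoplasm of resting cells. Receptors for TNF, interleukin-1 or microbial products activate the IkB kinase complex, IkB is degraded, and dimers such as RELA with the NFKB1 product enter the nucleus, while a slower non-canonical arm processes the NFKB2 product and acts through RELB. Their targets include chemokines, cytokines and adhesion proteins, and also the pathway's own inhibitors, which end the response.

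NF-kB dimers bind a short, nearly symmetric DNA motif, so the promoters are shown before the levels. RefSeq windows of the 250 bases before a gene's start, on GRCh38.p14, were matched to 31 of the 37 genes, and the others were RELB, CSF1, NFKBIE, CD40, CCL5 and CCL2. The kappa-B consensus was searched on both strands, and 16 of the 31 genes held it in at least 1 window, or 51.6%, against 3221 of 27305 genes in the RefSeq table, or 11.8%. Counted by windows rather than genes, 19 of the 50 windows of these genes held it, or 38%, against 9.96% of 35116 windows. The looser pattern GGGNNNNNCC, which every match to the consensus also meets, was found in 29 of the 31 genes and in 57.8% of all genes. Many of these genes were listed because they are known targets of NF-kB, and a match is a description of letters, not of binding. Printed here are 6 genes with a match that also differed between the control libraries, with the 250 bases written 5′ to 3′ on the gene's own strand and the matches in capitals.
CXCL2: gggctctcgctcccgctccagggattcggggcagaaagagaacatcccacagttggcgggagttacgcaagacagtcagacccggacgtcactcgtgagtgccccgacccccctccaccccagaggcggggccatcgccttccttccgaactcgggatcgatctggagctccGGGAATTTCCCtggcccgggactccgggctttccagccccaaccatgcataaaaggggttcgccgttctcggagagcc
VCAM1: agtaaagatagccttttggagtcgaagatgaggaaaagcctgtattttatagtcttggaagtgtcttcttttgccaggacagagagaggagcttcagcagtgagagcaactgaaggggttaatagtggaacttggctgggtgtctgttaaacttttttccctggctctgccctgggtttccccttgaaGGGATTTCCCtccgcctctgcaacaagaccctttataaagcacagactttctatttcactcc
IL32: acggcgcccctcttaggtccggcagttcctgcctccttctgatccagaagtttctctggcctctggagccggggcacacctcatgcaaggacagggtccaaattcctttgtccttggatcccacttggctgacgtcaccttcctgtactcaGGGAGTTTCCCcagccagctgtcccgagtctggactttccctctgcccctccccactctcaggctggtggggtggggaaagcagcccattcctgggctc
LTB: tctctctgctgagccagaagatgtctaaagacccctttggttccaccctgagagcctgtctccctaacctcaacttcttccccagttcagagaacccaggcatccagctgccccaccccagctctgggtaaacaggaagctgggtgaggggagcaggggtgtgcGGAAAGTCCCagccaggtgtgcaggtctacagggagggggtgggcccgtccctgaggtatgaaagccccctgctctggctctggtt
CD83: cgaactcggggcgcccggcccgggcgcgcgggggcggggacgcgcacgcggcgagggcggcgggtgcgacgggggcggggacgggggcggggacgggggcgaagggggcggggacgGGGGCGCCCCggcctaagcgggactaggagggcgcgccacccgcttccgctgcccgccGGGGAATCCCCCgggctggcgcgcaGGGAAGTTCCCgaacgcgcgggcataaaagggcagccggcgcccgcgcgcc
NFKBIZ: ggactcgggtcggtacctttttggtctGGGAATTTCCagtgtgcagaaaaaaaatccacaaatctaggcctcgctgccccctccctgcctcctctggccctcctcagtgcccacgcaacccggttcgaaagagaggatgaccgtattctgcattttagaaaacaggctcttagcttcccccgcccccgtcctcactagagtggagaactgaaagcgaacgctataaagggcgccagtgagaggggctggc
The CXCL2 window is chr4:74099196-74099445 on the minus strand, and its match GGGAATTTCCC lies from 78 to 68 bases before the start. VCAM1 (chr1:100719492-100719741, plus strand) has GGGATTTCCC, which meets the consensus on both strands, from 62 to 53 bases before its start. IL32 (chr16:3065153-3065402, plus strand) has GGGAGTTTCCC from 99 to 89 bases before its start, and LTB (chr6:31582426-31582675, minus strand) has GGAAAGTCCC from 86 to 77 bases before. The CD83 window (chr6:14117522-14117771, plus strand) holds 3 separate stretches, of which GGGGCGCCCC is the farthest from the start, and GGGGAATCCCCC and GGGAAGTTCCC lie nearer. The match of NFKBIZ (chr3:101827740-101827989, plus strand) lies from 223 to 214 bases before its start, farther out than those of the other 5.

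Several facts about the libraries bear on these genes. Library totals lay between 54047293 and 83481963 counted reads. MYCN stood at 0.0607 to 0.24 CPM (counts scaled to the TMM-adjusted library total) in the libraries labelled SK-N-BE(2) and at 3457 to 3932 CPM in those labelled SK-N-AS, the reverse of the design's description, and the libraries are therefore called by their labels. All 10 adrenergic neuroblastoma markers had reads under both labels, with summed levels of 1029 to 1571 CPM labelled SK-N-BE(2) and 7174 to 8159 CPM labelled SK-N-AS. In controls, 9 of the 10 were lower labelled SK-N-BE(2) and 1 was higher. TH was near 0 labelled SK-N-BE(2), at 0.0607 to 0.607 CPM, against 242 to 308 CPM labelled SK-N-AS. The blood-cell list of 13 genes summed to 163.2 to 289.2 CPM in ML210 and 264.0 to 329.7 CPM in control libraries labelled SK-N-BE(2), against 1.91 to 3.25 CPM in ML210 and 1.81 to 3.60 CPM in control libraries labelled SK-N-AS. Nearly all of it labelled SK-N-BE(2) was PTPRC, while CD3E and MS4A1 were at 0 in all libraries labelled SK-N-BE(2). The 8 endothelial markers, from cells that also express ICAM1 and VCAM1, summed to 1.86 to 3.90 CPM labelled SK-N-BE(2) and to 18.1 to 48.3 CPM labelled SK-N-AS. The part of such cells in the results was not tested. Among 42 genes that were high in libraries labelled SK-N-BE(2) and low in the others, the median level in libraries labelled SK-N-AS was 0.346% to 0.362% of the SK-N-BE(2) mean in batch 1, and 1.19% to 1.77% in batches 2 and 3. In libraries labelled SK-N-BE(2), 69 genes of the reverse kind had medians of 0.256% to 0.525%.

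NFKBIA, the pathway's own inhibitor, and the subunit RELA were among the highest of the genes under both labels. Levels in CPM per kilobase of exon allow genes to be compared roughly. The length counts every annotated exon of a gene, used or not, such as 16493 bases for SOD2. In ML210 libraries labelled SK-N-BE(2), NFKBIA stood at 39.7 ± 6.87, CCL2 at 39.4 ± 24.0, TNFAIP2 at 25.4 ± 3.37, RELA at 25.3 ± 1.78 and TNIP1 at 18.5 ± 2.16 CPM per kilobase (SD, n = 3). The control libraries with that label had CCL2 at 38.2 ± 26.4, NFKBIA at 38.1 ± 8.67, TNFAIP2 at 30.9 ± 2.94, RELA at 25.6 ± 1.08 and TNIP1 at 16.5 ± 1.79 CPM per kilobase. NFKBIA and CCL2 lay within their spread of each other there. Libraries labelled SK-N-AS had another order. NFKBIA stood at 16.0 ± 1.02 in their ML210 and 16.1 ± 1.21 CPM per kilobase in their control libraries, followed by RELA at 11.8 ± 0.44 and 12.1 ± 0.859, and BIRC2 at 11.4 ± 0.401 and 11.8 ± 0.741. RELA, BIRC2 and TNIP1 did not differ beyond their spread in that order. CCL2, a chemokine that attracts monocytes, led or followed NFKBIA labelled SK-N-BE(2), and stood at 0.193 ± 0.113 in ML210 and 0.36 ± 0.218 CPM per kilobase in control libraries labelled SK-N-AS. At the low end, CXCL1 had no read in any of the 12 libraries, which allows up to 0.039 to 0.059 CPM by a floor of 3 reads per library. CCL20 had 4 reads and CXCL3 had 4 reads in all, and CCL5 and CSF2 had none labelled SK-N-AS.

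**Figure D1:**
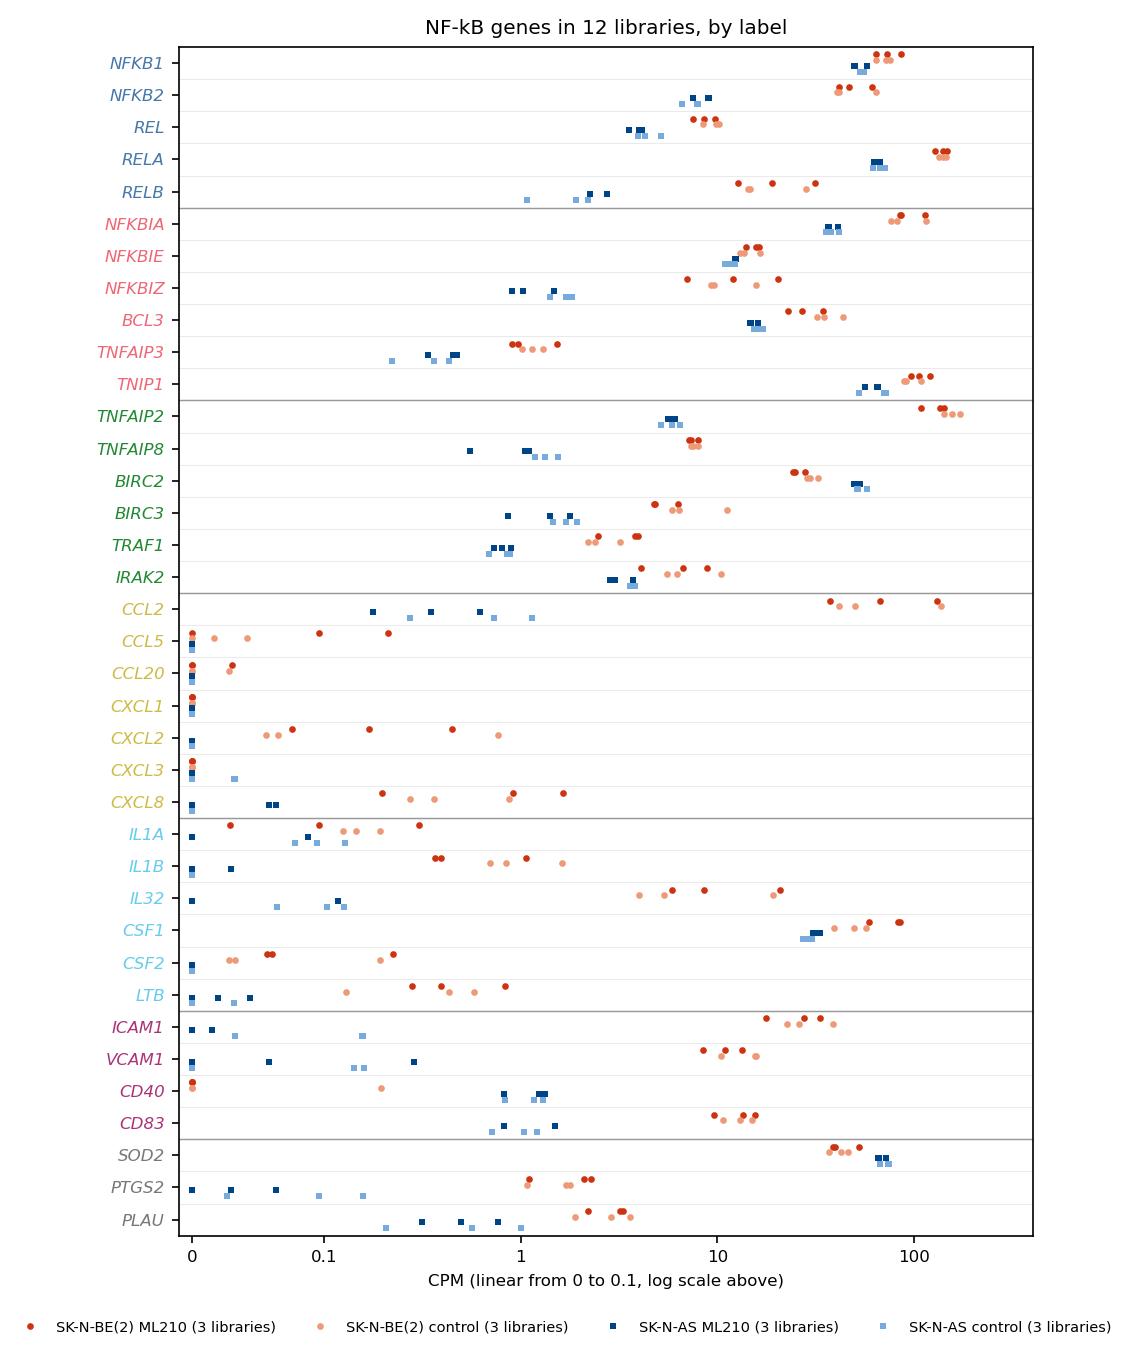
Level of each of the 37 genes in CPM in the 12 libraries, 1 point per library, coloured by line label and treatment, on an axis that is linear up to 0.1 CPM and logarithmic above. Points of the 2 treatments of a label lie together for most genes, while the labels separate, with CCL2, ICAM1, VCAM1 and IL32 farthest apart and BIRC2, SOD2 and CD40 in the opposite order.

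The control libraries show the mRNA levels of these genes under each label without ML210. Most of the genes were higher in libraries labelled SK-N-BE(2), including every subunit and every inhibitor. Of the 37 genes, 32 passed the filter on low counts, and CCL5, CCL20, CXCL1, CXCL3 and CSF2 were not tested. Of the 32 genes, 28 were higher and 3 were lower in control libraries labelled SK-N-BE(2) than in control libraries labelled SK-N-AS, at an adjusted p under 0.05 in edgeR's quasi-likelihood test. The lines differed widely, with 33.9% of the 20304 genes tested called higher and 35.2% called lower. The median log2 difference of the 32 genes was 2.23, against -0.01 over all genes tested. With library totals in place of TMM scaling the median of all genes moved to 0.24, and 60.7% rather than 49.1% of all calls were higher, while the counts of 28 and 3 were the same. A gene that passed the filter through its high label alone had to differ: 15 of the 37 genes had under 10 reads in some library labelled SK-N-AS and 9 in some labelled SK-N-BE(2). Of the 21 genes with at least 10 reads in all 12 libraries, 19 were higher and 2 were lower, with a smaller median log2 difference of 1.24. The 3 control libraries labelled SK-N-BE(2) lay all above the 3 labelled SK-N-AS in 28 of 32 genes and all below in 3, against 36.3% and 37.7% of all genes. In such bulk libraries, more cells of a type and more RNA per cell cannot be told apart.

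The 5 subunits were all higher in control libraries labelled SK-N-BE(2), with a median log2 difference of 1.09. Values given in threes are those of batches 1, 2 and 3. RELA, the main activating subunit (chr11:65653596-65663094, minus strand, GRCh38), had 145, 140 and 134 CPM in control libraries labelled SK-N-BE(2), against 66.9, 70.7 and 61.3 CPM in control libraries labelled SK-N-AS. The labels did not overlap, and the log2 difference was 1.07 ± 0.0675 (SE, adjusted p = 5.52e-09). NFKB1, whose product pairs with RELA, had 71.5, 75.5 and 63.6 CPM labelled SK-N-BE(2) and 55.8, 53.5 and 52.9 CPM labelled SK-N-AS, a log2 difference of 0.38 ± 0.0989 (SE, adjusted p = 0.00383). It was the smallest difference among the subunits. Without batches 2 and 3 labelled SK-N-AS, which left 1 control library of that label, the log2 difference was 0.33. REL, a subunit best known from lymphocytes, had 9.88, 8.40 and 10.2 CPM labelled SK-N-BE(2) and 3.94, 4.28 and 5.15 CPM labelled SK-N-AS, a log2 difference of 1.09 ± 0.147 (SE, adjusted p = 1.37e-05). Its value is uncertain, since 43.3% of its exonic bases are shared with the transcript AC010733.2 on the same strand.

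The subunits of the non-canonical arm differed most. NFKB2 (chr10:102394110-102402529, plus strand) had 41.6, 64.0 and 40.7 CPM in control libraries labelled SK-N-BE(2), against 7.92, 7.93 and 6.59 CPM in those labelled SK-N-AS. RELB (chr19:45001430-45038198, plus strand) had 14.3, 28.0 and 14.6 CPM labelled SK-N-BE(2), against 1.08, 1.92 and 2.21 CPM labelled SK-N-AS. Every library labelled SK-N-BE(2) was above every other, and batch 2 was the highest of them for both genes. The log2 difference was 2.70 ± 0.199 for NFKB2 (SE, adjusted p = 1.76e-07) and 3.46 ± 0.421 for RELB (SE, adjusted p = 3.1e-05). For RELB it was 4.13 without batches 2 and 3 labelled SK-N-AS.

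All 6 inhibitors and IkB-like regulators were higher as well, with a median log2 difference of 1.22. NFKBIA encodes IkB-alpha, the inhibitor that canonical signalling degrades and NF-kB makes anew. It had 76.1, 114 and 81.3 CPM in control libraries labelled SK-N-BE(2), against 41.3, 37.9 and 35.6 CPM in those labelled SK-N-AS. The labels did not overlap, and the log2 difference was 1.24 ± 0.156 (SE, adjusted p = 2.16e-05). NFKBIZ, an atypical nuclear IkB protein that assists the transcription of secondary targets, had 9.31, 15.7 and 9.56 CPM labelled SK-N-BE(2) and 1.42, 1.83 and 1.71 CPM labelled SK-N-AS. Its log2 difference of 2.81 ± 0.374 (SE, adjusted p = 3.62e-05) was the largest of this role. BCL3, another nuclear IkB-like protein, had 35.0, 43.2 and 32.1 CPM labelled SK-N-BE(2) and 15.9, 16.9 and 15.3 CPM labelled SK-N-AS, with a log2 difference of 1.2 ± 0.137 (SE, adjusted p = 3.19e-06). TNFAIP3, a ubiquitin-editing enzyme that shuts off signalling, was low, with 1.02, 1.30 and 1.14 CPM labelled SK-N-BE(2) and 0.364, 0.432 and 0.221 CPM labelled SK-N-AS. Its log2 difference was 1.76 ± 0.328 (SE, adjusted p = 0.000276). TNIP1, which binds TNFAIP3, had 89.1, 108 and 90.3 CPM labelled SK-N-BE(2) and 52.6, 69.9 and 71.8 CPM labelled SK-N-AS, a log2 difference of 0.56 ± 0.125 (SE, adjusted p = 0.00151).

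NFKBIE, which encodes IkB-epsilon, differed least of the inhibitors. It had 13.0, 16.5 and 13.7 CPM in control libraries labelled SK-N-BE(2) and 10.9, 12.2 and 11.6 CPM in those labelled SK-N-AS. The labels did not overlap, and the log2 difference was 0.31 ± 0.105 (SE, adjusted p = 0.0165). It lost its call without control replicate 1 labelled SK-N-AS (adjusted p = 0.0655) and without control replicate 2 labelled SK-N-BE(2) (adjusted p = 0.0647). Without batches 2 and 3 labelled SK-N-AS the log2 difference was 0.39.

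Among the 6 signalling and survival genes, 5 were higher and 1 was lower. TNFAIP2 (chr14:103123442-103137439, plus strand), a TNF-induced gene whose product shapes thin membrane protrusions, had 155, 171 and 141 CPM in control libraries labelled SK-N-BE(2), against 5.19, 6.44 and 5.86 CPM in those labelled SK-N-AS. The groups lay far apart, and the log2 difference of 4.74 ± 0.119 (SE, adjusted p = 1.81e-12) is a 26.7-fold difference. TNFAIP8, which opposes apoptosis, had 7.95, 7.34 and 7.55 CPM labelled SK-N-BE(2) and 1.18, 1.55 and 1.33 CPM labelled SK-N-AS, a log2 difference of 2.49 ± 0.208 (SE, adjusted p = 1.02e-07). BIRC3 and BIRC2 are neighbouring genes for ubiquitin ligases that restrain the non-canonical arm, and they went in opposite directions. BIRC3 had 5.86, 11.2 and 6.39 CPM labelled SK-N-BE(2) and 1.46, 1.70 and 1.93 CPM labelled SK-N-AS, a log2 difference of 2.21 ± 0.285 (SE, adjusted p = 9.48e-06). BIRC2, named because it is 1 of the 3 lower genes, had 32.6, 28.6 and 29.4 CPM labelled SK-N-BE(2) and 51.7, 51.4 and 57.4 CPM labelled SK-N-AS, a log2 difference of -0.83 ± 0.0771 (SE, adjusted p = 3.32e-07). TRAF1, an adaptor of TNF receptors, and IRAK2, a kinase of the interleukin-1 receptor pathway, were higher by a log2 difference of 1.69 and 0.99. Without batches 2 and 3 labelled SK-N-AS the log2 difference of IRAK2 was 1.03.

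The secreted factors ranged from near 0 to among the highest levels. CCL2 (chr17:34255218-34257203, plus strand) had 41.4, 136 and 50.2 CPM in control libraries labelled SK-N-BE(2), against 0.273, 0.737 and 1.14 CPM in those labelled SK-N-AS. Batch 2 was the highest labelled SK-N-BE(2), and the levels labelled SK-N-AS, at 0.354%, 0.956% and 1.48% of the SK-N-BE(2) mean, lay near the median of the traces in batches 1 and 3 and below it in batch 2. The log2 difference was 6.77 ± 0.823 (SE, adjusted p = 6.78e-05), 8.11 without batches 2 and 3 labelled SK-N-AS, and 6.06 without control replicate 2 labelled SK-N-BE(2). CXCL8, which attracts neutrophils, had 106 reads in the 3 control libraries labelled SK-N-BE(2) and 0 in those labelled SK-N-AS, at least 34.8-fold higher by a floor of 3 reads per group. CXCL2, a related chemokine that shares 12.5% of its 50-base words with other transcripts, had 64 reads against 0, at least 21-fold higher. Of the 7 chemokines 3 were tested and all 3 were higher, against 33.9% of all genes tested. CXCL8 and CXCL2, without a read in control libraries labelled SK-N-AS, passed the filter through libraries labelled SK-N-BE(2) and had to be higher. CXCL2 had no read in any library labelled SK-N-AS, so the size of its log2 difference, 7.31, is not measured beyond the floor. The log2 difference was 7.33 without batches 2 and 3 labelled SK-N-AS, which had no reads of the gene to lose. It became 5.03 without control replicate 2 labelled SK-N-BE(2).

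Of the 6 cytokines 5 were tested, 4 were higher and 1 was not called. IL32, IL1B and LTB passed the filter through libraries labelled SK-N-BE(2) alone and had to be higher. IL32, a cytokine that induces TNF and other inflammatory factors, had 5.35, 19.1 and 4.02 CPM in control libraries labelled SK-N-BE(2), against 0.104, 0.0641 and 0.126 CPM in those labelled SK-N-AS. The labels did not overlap, and its 20 reads labelled SK-N-AS, at 0.979%, 0.603% and 1.19% of the SK-N-BE(2) mean, lay above the median of the traces in batch 1 and below it in batches 2 and 3. The log2 difference was 6.56 ± 0.997 (SE, adjusted p = 0.000219), and 5.57 without control replicate 2 labelled SK-N-BE(2). CSF1, the growth factor of macrophages (chr1:109910242-109930992, plus strand), had 49.3, 56.8 and 39.0 CPM labelled SK-N-BE(2) and 29, 30.2 and 27.2 CPM labelled SK-N-AS. It was expressed under both labels without overlap, with a log2 difference of 0.75 ± 0.145 (SE, adjusted p = 0.000559). Without batches 2 and 3 labelled SK-N-AS the log2 difference of CSF1 was 0.74. IL1B had 220 reads labelled SK-N-BE(2) and 0 labelled SK-N-AS, at least 72.2-fold higher. LTB, a subunit of membrane lymphotoxin, had 81 reads against 2, a ratio of 39.9 with an exact 95% counting interval of 10.7 to 334.9. IL1A overlapped between the labels, at 0.146, 0.193 and 0.126 CPM labelled SK-N-BE(2) and 0.078, 0.128 and 0.0948 CPM labelled SK-N-AS (log2 0.63, adjusted p = 0.549). CSF2, which was not tested for its low counts, had 18 reads labelled SK-N-BE(2) and 0 labelled SK-N-AS.

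The adhesion proteins ICAM1 and VCAM1 were near 0 labelled SK-N-AS. ICAM1 (chr19:10270835-10286615, plus strand), the ligand of leukocyte integrins, had 22.6, 38.6 and 25.8 CPM in control libraries labelled SK-N-BE(2), against 0.156, 0.032 and 0.158 CPM in those labelled SK-N-AS. VCAM1 (chr1:100719742-100739045, plus strand), which binds another leukocyte integrin, had 10.4, 15.5 and 15.7 CPM labelled SK-N-BE(2), against 0, 0.16 and 0.142 CPM labelled SK-N-AS. Levels labelled SK-N-AS were 0.566%, 0.116% and 0.573% of the SK-N-BE(2) mean for ICAM1, above the median of the traces in batch 1 and below it in batches 2 and 3. They were 0%, 1.30% and 1.15% for VCAM1, below that median in each batch, and VCAM1 had no read in the 2 libraries of batch 1. The log2 difference was 7.92 ± 0.43 for ICAM1 (SE, adjusted p = 1.88e-08) and 7.16 ± 0.682 for VCAM1 (SE, adjusted p = 3.93e-06). Of the ICAM1 exonic bases, 22.0% are shared with the antisense transcript AC011511.5, and the sources used here do not say whether the counting used strand. CD83, a surface protein of activated dendritic cells, had 13.0, 15 and 10.6 CPM labelled SK-N-BE(2) and 0.715, 1.22 and 1.04 CPM labelled SK-N-AS, a log2 difference of 3.71 ± 0.279 (SE, adjusted p = 5.62e-08). CD40, a TNF-family receptor that activates NF-kB, went the other way. It had 0.195, 0 and 0 CPM labelled SK-N-BE(2) and 0.832, 1.17 and 1.30 CPM labelled SK-N-AS, a log2 difference of -4.14 ± 0.877 (SE, adjusted p = 0.0016). All 12 of its reads labelled SK-N-BE(2) came from control replicate 1, and its log2 difference was -3.73 without batches 2 and 3 labelled SK-N-AS.

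Of the 3 enzymes, 2 were higher and 1 was lower. SOD2, the superoxide dismutase of mitochondria, had 42.5, 45.8 and 37.1 CPM in control libraries labelled SK-N-BE(2), against 74.3, 66.6 and 73.5 CPM in those labelled SK-N-AS. The labels did not overlap, and the log2 difference was -0.77 ± 0.109 (SE, adjusted p = 2.43e-05). PTGS2, which makes prostaglandins, and PLAU, the urokinase protease, were higher labelled SK-N-BE(2), by a log2 difference of 4.05 ± 0.55 and 2.24 ± 0.463 (SE). PTGS2 stood at 1.70, 1.79 and 1.07 CPM labelled SK-N-BE(2) and at 0.026, 0.0961 and 0.158 CPM labelled SK-N-AS. PLAU stood at 2.87, 3.59 and 1.90 CPM labelled SK-N-BE(2) and at 0.208, 1.01 and 0.569 CPM labelled SK-N-AS. For both, batch 1 was the lowest labelled SK-N-AS, and without batches 2 and 3 of that label the log2 difference was 5.77 for PTGS2 and 3.73 for PLAU. The gene C10orf55 on the opposite strand covers 31.1% of the exonic bases of PLAU.

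**Figure D2:**
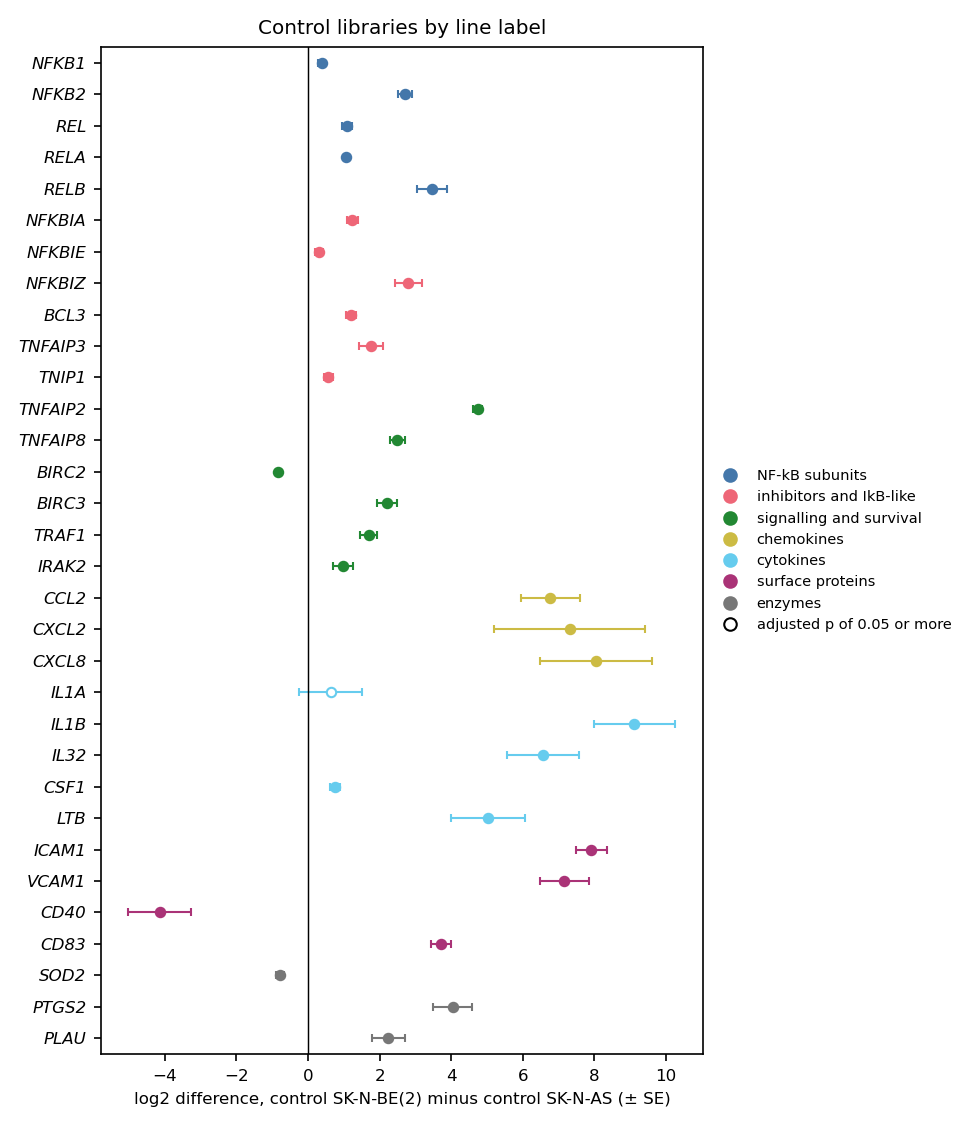
Log2 difference, control libraries labelled SK-N-BE(2) minus control libraries labelled SK-N-AS, of the 32 genes tested, with bars of 1 SE, coloured by role, filled where the adjusted p was under 0.05. All but BIRC2, CD40 and SOD2 lie right of 0, and IL1A alone is open.

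The genes that carry the signal to NF-kB differed between the controls in either direction. Of 35 receptors, adaptors, kinases and ubiquitin ligases upstream, all tested, 25 were higher and 7 were lower in control libraries labelled SK-N-BE(2) than in those labelled SK-N-AS, with a median log2 difference of 0.95. Over all genes tested, 33.9% were called higher and 35.2% lower. Genes with very few reads labelled SK-N-AS, such as TLR2 with 4 in its control libraries, had to be higher. SHARPIN and RBCK1 encode partners in the complex that builds linear ubiquitin chains. SHARPIN had 62.9, 69.1 and 61.6 CPM labelled SK-N-BE(2), against 16.7, 16.9 and 14.9 CPM labelled SK-N-AS (log2 2.00, SE 0.0800, adjusted p = 6.94e-11). RBCK1 had 125, 128 and 116 CPM labelled SK-N-BE(2), against 30.8, 31.9 and 31.2 CPM labelled SK-N-AS (log2 1.98, SE 0.0715, adjusted p = 2.83e-11). MAP3K7, the kinase that activates the IkB kinases, was higher by a log2 difference of 1.26 (SE 0.048, adjusted p = 4.61e-11), and its partner TAB1 was lower, at -1.61 (SE 0.0804, adjusted p = 5.28e-10). MAP3K7 and TAB1 thus differed in opposite directions. The related genes TAB3 and TAB2, named after their values were seen, also split. TAB3 had a mean of 41.6 CPM in control libraries labelled SK-N-BE(2) and 26.8 CPM in those labelled SK-N-AS. TAB2 had 59.0 and 98.9 CPM. Of the list, IKBKB, CHUK and NFKBID were not called.

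Of 25 further known targets, 19 were tested, 16 were higher and 3 were lower, against 33.9% and 35.2% of all genes tested. Their median log2 difference was 3.88. Some passed the filter through libraries labelled SK-N-BE(2) alone and had to be higher, such as SAA1 and TNFSF10, without a read in any library labelled SK-N-AS. IL15, a growth factor of lymphocytes, had 14.0, 12.7 and 12.5 CPM in control libraries labelled SK-N-BE(2), against 0.897, 0.993 and 0.758 CPM in those labelled SK-N-AS (log2 3.88, SE 0.182, adjusted p = 3.03e-10). SDC4, a heparan sulphate proteoglycan, was higher by 2.34 (SE 0.19, adjusted p = 4.48e-07), and IL11, a cytokine of the IL6 family, by 3.08 (SE 0.327, adjusted p = 1.28e-06), both on the log2 scale. CX3CL1, a chemokine tethered to the membrane, had 12.4, 16.0 and 12.8 CPM labelled SK-N-BE(2), against 84.4, 102 and 90.8 CPM labelled SK-N-AS (log2 -2.75, SE 0.138, adjusted p = 1.97e-09). IL6 itself had no read in any of the 12 libraries, and TNF, named after its values were seen, had 46 reads in control libraries labelled SK-N-BE(2) and 0 in those labelled SK-N-AS.

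No gene of the list was called between ML210 and control libraries under either label. In libraries labelled SK-N-BE(2), 0 of 32 were called, against 1.37% of all genes tested, and 5 had an unadjusted p under 0.05, against 13.5% of all genes. In libraries labelled SK-N-AS, 0 of 32 were called, against 0.0296% of all genes, and 2 had an unadjusted p under 0.05, against 6.89%. The difference of the ML210 responses between the labels was called for 0 of 32, against 0.00493% of all genes, with 2 at an unadjusted p under 0.05, against 7.16%. DESeq2 called 1 of 36 genes labelled SK-N-BE(2), CSF1, against 753 of 36967 over all genes. It called 0 of 36 in the other comparisons. Over all genes it called 47 labelled SK-N-AS and 39 for the difference of the responses. Median log2 fold changes were 0.01 labelled SK-N-BE(2) and -0.04 labelled SK-N-AS. The ML210 and control libraries did not overlap for 3 genes labelled SK-N-BE(2) (CSF1, BIRC2 and TNFAIP2) and for 5 labelled SK-N-AS (CSF1, NFKBIE, RELB, ICAM1 and TNFAIP8), against 17.4% and 14.9% of all genes. The mRNA of the drug's target, GPX4, was not called either, at 215, 239 and 249 CPM in ML210 and 242, 257 and 241 CPM in control libraries labelled SK-N-BE(2), and at 254, 247 and 245 CPM in ML210 and 282, 266 and 261 CPM in control libraries labelled SK-N-AS. ML210 acts on the GPX4 protein, so this mRNA does not check the treatment. The lists of 35 upstream genes and 25 further targets had 0 calls in all 3 of these comparisons.

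CSF1 came closest to a call. It had 84.7, 82.5 and 58.9 CPM in ML210 libraries labelled SK-N-BE(2), against 49.3, 56.8 and 39.0 CPM in their controls. Each ML210 library was above every control, and the log2 fold change was 0.64 ± 0.144 (SE, adjusted p = 0.0532). With the batches as a block within each line it was 0.64 ± 0.0622 (SE, adjusted p = 0.000174), and it was also called with batch as an additive term (adjusted p = 0.0105), with library totals (adjusted p = 0.0447), with DESeq2 (adjusted p = 0.0023) and without ML210 replicate 3 labelled SK-N-BE(2) (adjusted p = 0.00261). In libraries labelled SK-N-AS, CSF1 had 33.4, 30.7 and 31.2 CPM with ML210, against 29, 30.2 and 27.2 CPM in controls, a log2 fold change of 0.14 ± 0.146 (SE, adjusted p = 0.921). The difference of the responses was 0.50 ± 0.205 on the log2 scale (SE, adjusted p = 0.656), and 0.49 with the block within each line (adjusted p = 0.0415), where 0.419% of all genes were called. That block also pairs libraries labelled SK-N-AS by batch, which their correlations did not bear out in batches 2 and 3.

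The block within each line also called 4 genes lower with ML210 labelled SK-N-BE(2), so that it called 5 of the 32 genes, against 6.83% of all genes tested. TNFAIP2 had 134, 141 and 109 CPM in ML210 libraries, against 155, 171 and 141 CPM in controls (log2 -0.28, adjusted p = 0.201, and 0.00788 with the block). BCL3 had 22.8, 34.2 and 27 CPM in ML210 libraries, against 35.0, 43.2 and 32.1 CPM in controls (log2 -0.39, adjusted p = 0.19, and 0.0134 with the block). BIRC2, with 27.9, 24.2 and 24.7 CPM in ML210 libraries, against 32.6, 28.6 and 29.4 CPM in controls, had a log2 fold change of -0.24 (adjusted p = 0.166, and 0.0251 with the block). All 3 genes were below their control in each of the 3 batches. CD40 rested on the 12 reads of 1 control library, against 0 reads with ML210 (adjusted p = 0.344, and 0.0407 with the block). Among the further targets, the block added GADD45B, a stress-induced gene named after its values were seen, at 4.83, 2.52 and 1.75 CPM in ML210 libraries, against 2.30, 1.92 and 1.09 CPM in controls (adjusted p = 0.323, and 0.0338 with the block).

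The subunits were close to their controls under both labels. RELA had 128, 147 and 140 CPM in ML210 libraries labelled SK-N-BE(2) and 62.2, 65 and 66.9 CPM in those labelled SK-N-AS. Its log2 fold change was -0.02, with a 95% interval of -0.15 to 0.12, labelled SK-N-BE(2), and -0.04, from -0.17 to 0.10, labelled SK-N-AS. NFKB1 had 72.5, 85.5 and 64.0 CPM in ML210 libraries labelled SK-N-BE(2) and 57.7, 49.5 and 49.9 CPM in those labelled SK-N-AS. These 2 genes had the narrowest intervals of the subunits. NFKB2 had 46.7, 60.9 and 41.6 CPM in ML210 libraries labelled SK-N-BE(2) and 9.01, 7.53 and 8.94 CPM in those labelled SK-N-AS. REL had 8.59, 9.76 and 7.53 CPM in ML210 libraries labelled SK-N-BE(2) and 3.56, 4.15 and 4.01 CPM in those labelled SK-N-AS. Neither had an adjusted p under 0.776. RELB had 18.8, 31.2 and 12.8 CPM in ML210 libraries labelled SK-N-BE(2), a log2 fold change of 0.14 with a wide interval of -0.58 to 0.86. In libraries labelled SK-N-AS, RELB had 2.26, 2.26 and 2.76 CPM with ML210, above each of its controls, and its log2 fold change of 0.49 had an interval of -0.34 to 1.32 (adjusted p = 0.893).

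The inhibitors gave no call either. NFKBIA had 84.3, 113 and 85.1 CPM in ML210 libraries labelled SK-N-BE(2) and 40.7, 36.4 and 36.7 CPM in those labelled SK-N-AS. Its log2 fold change was 0.06, from -0.24 to 0.35, labelled SK-N-BE(2), and -0.01, from -0.32 to 0.29, labelled SK-N-AS. NFKBIZ had 12.0, 20.2 and 7.03 CPM in ML210 libraries labelled SK-N-BE(2) and 0.905, 1.03 and 1.48 CPM in those labelled SK-N-AS. Labelled SK-N-BE(2) it ranged more between batches than between treatments. TNFAIP3 had 0.972, 1.53 and 0.904 CPM in ML210 libraries labelled SK-N-BE(2) and 0.452, 0.337 and 0.478 CPM in those labelled SK-N-AS. TNIP1 had 106, 121 and 96.0 CPM in ML210 libraries labelled SK-N-BE(2) and 56.3, 65.3 and 64.6 CPM in those labelled SK-N-AS. NFKBIE had 15.7, 16.3 and 13.9 CPM in ML210 libraries labelled SK-N-BE(2) and 12.4, 12.3 and 12.3 CPM in those labelled SK-N-AS. For all 3, the log2 fold change was 0.31 or less in size under both labels. BCL3 labelled SK-N-AS had 14.7, 14.6 and 16.0 CPM with ML210, against 15.9, 16.9 and 15.3 CPM in controls.

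Targets and survival genes spread more widely where counts were low. TNFAIP8 labelled SK-N-AS had 0.551, 1.06 and 1.10 CPM with ML210, against 1.18, 1.55 and 1.33 CPM in controls, a log2 fold change of -0.57 ± 0.219 (SE, adjusted p = 0.649). ICAM1 labelled SK-N-AS had 1 read in the 3 ML210 libraries and 24 in the 3 controls (adjusted p = 0.616), and CXCL8 had 8 reads and 0 reads (adjusted p = 0.743). Labelled SK-N-BE(2), ICAM1 had 27.5, 33.2 and 17.6 CPM with ML210, VCAM1 had 8.41, 11.0 and 13.3 CPM, and CD83 had 13.4, 15.5 and 9.66 CPM, each overlapping its controls. BIRC3 had 4.74, 6.33 and 4.81 CPM with ML210 labelled SK-N-BE(2), below its control in each batch (log2 -0.56, SE 0.268, adjusted p = 0.387). SOD2 had 39.7, 52.2 and 38.7 CPM in ML210 libraries labelled SK-N-BE(2) and 66.5, 71.9 and 65.6 CPM in ML210 libraries labelled SK-N-AS, with log2 fold changes of 0.06 and -0.07. Its intervals, from -0.15 to 0.27 and from -0.28 to 0.14, did not reach a change of 1 on the log2 scale.

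**Figure D3:**
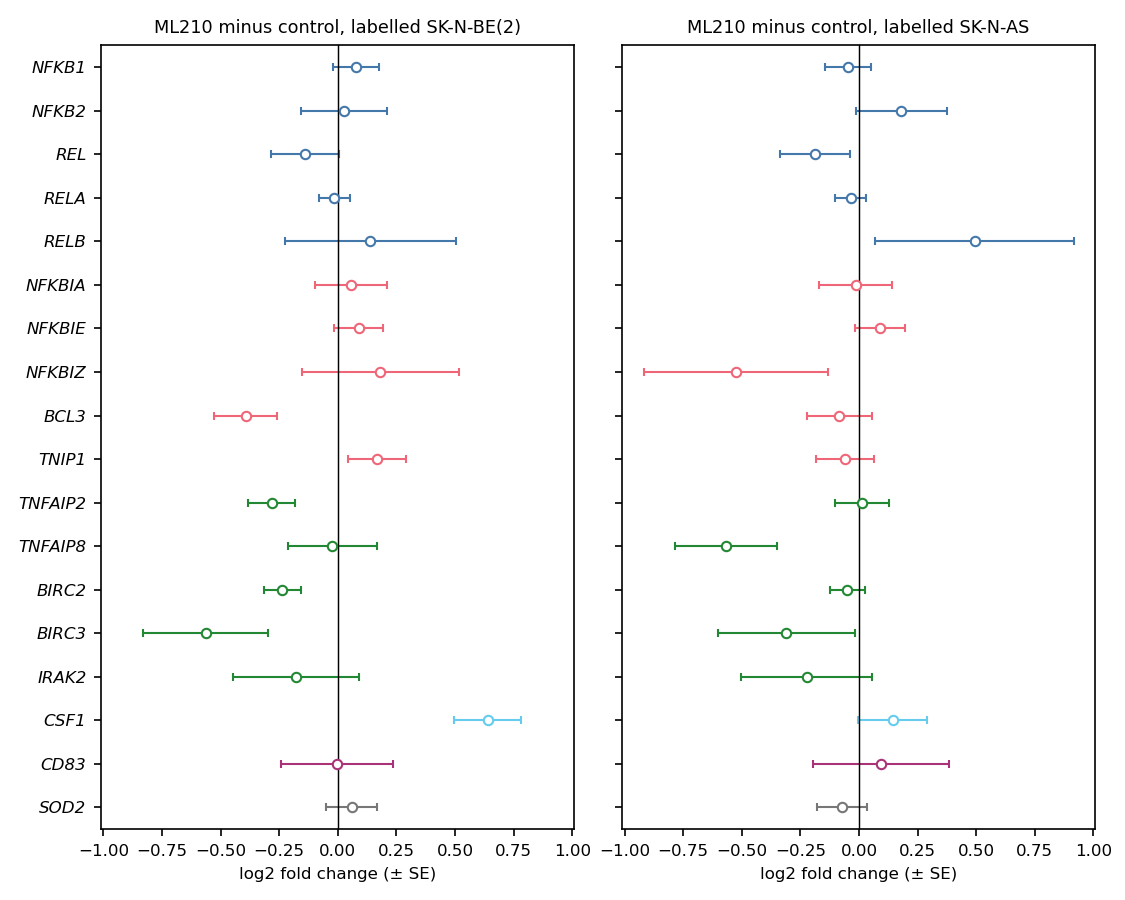
Log2 fold change, ML210 minus control, in libraries labelled SK-N-BE(2) on the left and SK-N-AS on the right, with bars of 1 SE. Shown are the 18 genes with at least 0.4 CPM in all 12 libraries and a mean log2 CPM of at least 2. All points are open, since none had an adjusted p under 0.05, and CSF1 labelled SK-N-BE(2), at 0.64, lies farthest right.

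Within the libraries labelled SK-N-BE(2), most of the genes were highest in the same batch. This pattern was noticed after the values were seen. In 23 of the 32 genes tested, batch 2 was the highest of the 3 batches in ML210 and again in control libraries, against 13.9% of all genes tested. Batch 1 was highest in both treatments for 1 gene, BIRC2, and batch 3 for 1 gene, VCAM1. The median ratio of batch 2 to the mean of batches 1 and 3 was 1.33 in ML210 and 1.29 in control libraries over the 32 genes, and 0.997 and 0.998 over all genes. Labelled SK-N-AS, batch 2 was highest in both treatments for 1 of the 32 genes, batch 1 for 2 and batch 3 for 4. The genes are not independent of each other, and each batch holds 1 library per group, so no test over batches was made.

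Several secreted factors, RELB and NFKBIZ had large ratios. IL32 had 8.52, 20.9 and 5.90 CPM in ML210 libraries labelled SK-N-BE(2), a ratio of batch 2 to the others of 2.89, and its ratio in controls was 4.08. CCL2 had 66.7, 131 and 37.4 CPM in ML210 libraries, a ratio of 2.51, and its ratio in controls was 2.98. The ratios of IL1B were 2.78 in ML210 and 2.11 in control libraries, those of CXCL8 2.96 and 2.72, those of RELB 1.97 and 1.94, and those of NFKBIZ 2.12 and 1.67. CXCL2, at 45 reads in ML210 and 64 in control libraries, had ratios of 3.67 and 12.8, and those of LTB were 2.47 and 2.06. These 8 genes were picked for their ratios, so the ratios are not compared with the ML210 fold changes. RELA, with ratios of 1.09 in ML210 and 1.00 in control libraries, and REL, with 1.21 and 0.835, were not among the 23 genes, while NFKB1, NFKB2 and RELB were. CSF1 was not among them either, since its ML210 value in batch 1 was the highest.

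The summed blood-cell markers and the share of mitochondrial reads were not highest in batch 2 in both treatments. Their relation to the pattern was not tested. The summed blood-cell markers were 163.2, 192.0 and 289.2 CPM in ML210 and 278.8, 264.0 and 329.7 CPM in control libraries labelled SK-N-BE(2), highest in batch 3. The share of reads from mitochondrial genes was 2.52%, 2.94% and 2.17% in ML210 and 2.32%, 2.11% and 2.46% in control libraries. It was highest in batch 2 with ML210 and lowest there in controls. The batch label is all that the sources used here give of the batches, and its part in the levels was not tested.

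**Figure D4:**
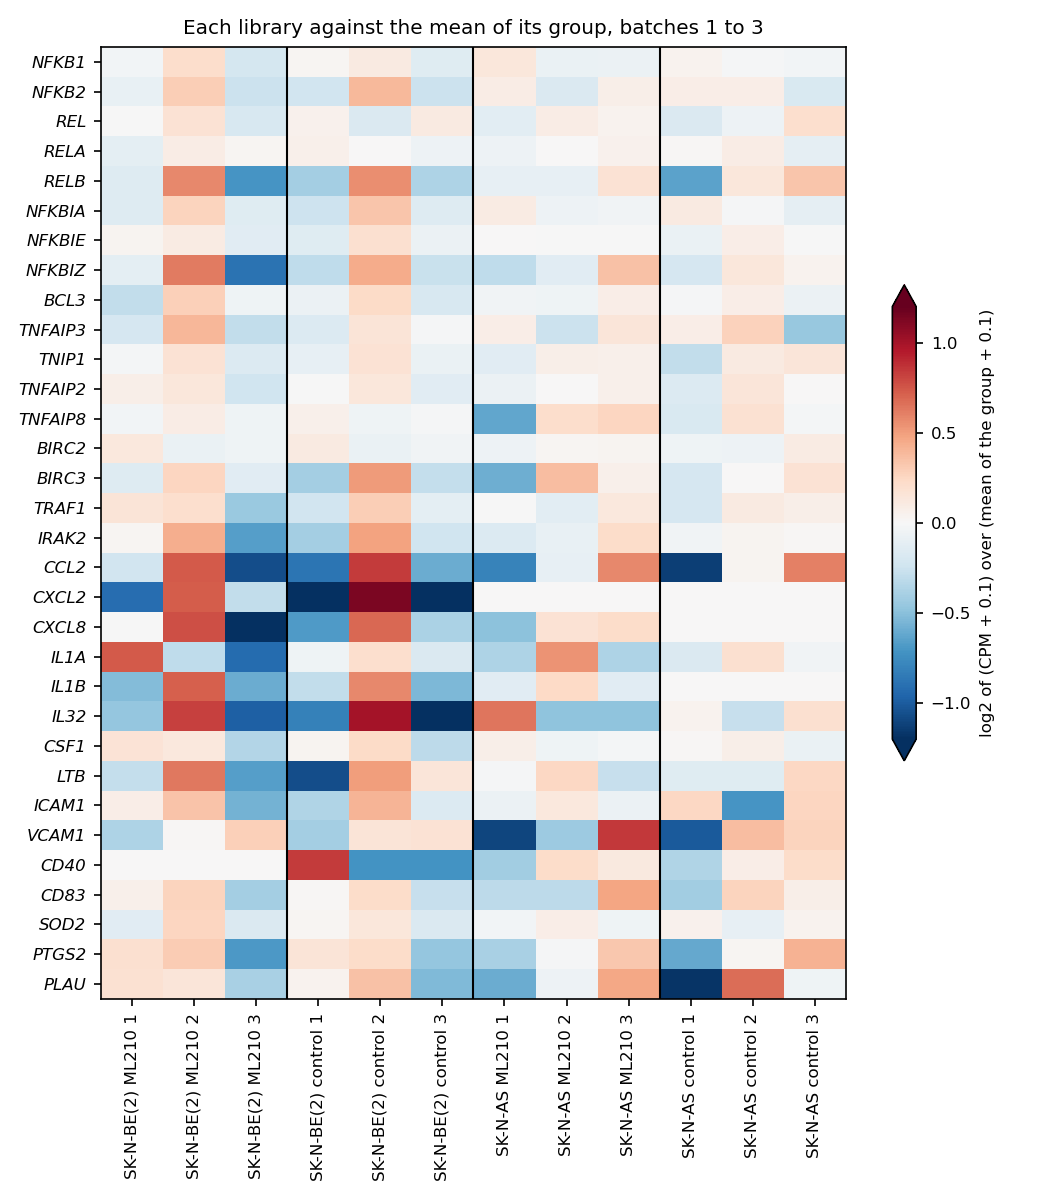
Log2 of each library's CPM over the mean of its group, with 0.1 added to both, for the 32 genes tested in rows and the 12 libraries in columns, with red above and blue below the group mean. The columns of batch 2 labelled SK-N-BE(2) are red for most genes in ML210 and in control libraries, and no column labelled SK-N-AS shows this in both treatments.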

How the data were processed

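Gene counts of 12 mRNA libraries were deposited by the authors as raw whole-number counts per Ensembl gene. FastQC, Trimmomatic (version given as 1.4), HISAT2 2.2.1 and featureCounts 2.0.5 are the tools, and GRCh38 and hg38 the builds, per the submitters' processing notes. The sources used here do not give the counting's use of strand, multi-mapping reads or annotation, so reads of overlapping, antisense or near-identical genes may be mixed. Per the labels' protocols, the libraries were made with a stranded mRNA kit.

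Symbols came from a table of gene names for 61399 identifiers and from GENCODE 29 for 145 more, among them SOD2, and 8 had no name. Coordinates and exon lengths are those of GENCODE 29 on GRCh38, and promoter windows are those of RefSeq on GRCh38.p14. The tests were run in edgeR 4.0.16 (R 4.3.3). filterByExpr by group left 20304 genes, scaled by TMM, and CPM use the scaled totals. A single model of the 4 group means was fitted to the 12 libraries (8 residual degrees of freedom, common dispersion 0.0223). Differences were tested by the robust, two-sided quasi-likelihood F test (glmQLFit, glmQLFTest), and p-values were adjusted by Benjamini-Hochberg over the 20304 genes. A call is an adjusted p under 0.05, and adjusted p in the text come from this test where no other is given. The 95% intervals of log2 values are normal approximations from the SE. Intervals and floors of reads cover counting error only.

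The genes, the lists of 35 upstream genes and 25 further targets, the markers and the tests were chosen with earlier results of these data known. The naming rule gave per-library values of the 5 subunits, the 6 inhibitors, genes called for ML210, and in each other role up to 3 genes with the largest control difference at a mean log2 CPM of at least 2. Of each list it took up to 4 called genes with the smallest adjusted p. Others named were needed to account for every gene or to state a count, and were chosen after their values were seen.

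Libraries with the same number share a batch by their labels, and were treated as paired in the fits with a replicate block. Deviations of ML210 and control libraries of the same batch correlated at 0.0957, 0.12 and 0.169 labelled SK-N-BE(2) and at 0.357, 0.0677 and 0.121 labelled SK-N-AS in batches 1, 2 and 3. Across batches, values labelled SK-N-BE(2) were all negative, from -0.1 to -0.00693. Labelled SK-N-AS, control batch 2 correlated at 0.189 with ML210 batch 3, and control batch 3 at 0.125 with ML210 batch 2. Both lay above their same-batch values, so the pairing of batches 2 and 3 labelled SK-N-AS is not borne out. Alternatives were other scalings, DESeq2 1.42.0, other filters, these blocks, a fit of only the groups compared, leaving out each library, and leaving out batches 2 and 3 labelled SK-N-AS. The last left 1 control library of that label, so only its effect sizes are given. Proteins were not analysed here.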

Additional observations from a re-analysis of the deposited data

How the results depend on the processing

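Between the controls, 26 to 29 of the 29 to 36 genes tested were called higher and 3 lower under the other scalings, filters, tools and samples. Over all genes, 13321 of 18872 were called in the fit of only the groups compared and 14397 of 36967 with DESeq2. The sets tested differ between settings. When each library was left out, 27 to 29 of 32 or 33 genes tested were called higher and 3 lower. Over all genes, between 13401 of 21080 and 14241 of 21046 were then called. Leaving out batches 2 and 3 labelled SK-N-AS left 1 control library of that label, and its calls are not counted here. No called difference of a named gene changed sign in these settings, while 54 of 124 gene values, all without a call, did so in at least 1 setting. For ML210 labelled SK-N-BE(2), 0 genes were called higher, but 1, CSF1, with library totals, with DESeq2, with batch as an additive replicate block and with the replicate block within each line, and 0 to 1 when each library was left out. The block within each line also called 4 genes lower, 1 of the further targets higher, and 1 gene, CSF1, higher in the difference of the responses. Over all genes tested it called 1386 for ML210 labelled SK-N-BE(2), against 279 without it, and 38 labelled SK-N-AS, against 6, and changed no other call on these genes. The cause was not tested. Leaving out single libraries moved further called control differences by over 1.5 times: CXCL8, 8.06 on the log2 scale, was 7.40 without control replicate 2 labelled SK-N-BE(2), PLAU, 2.24, was 2.86 without control replicate 2 labelled SK-N-AS, PTGS2, 4.05, was 4.66 without control replicate 3 labelled SK-N-AS, and VCAM1, 7.16, was 6.5 without control replicate 1 labelled SK-N-AS. LTB, at 5.02, was 4.43 without control replicate 1 labelled SK-N-AS, and its 2 reads of that label came from control replicate 3. CD40, at -4.14, was -3.50 without control replicate 2 or 3 labelled SK-N-BE(2), and at 0 reads there without replicate 1. Depth limits the chemokines and cytokines under 1 CPM, for which single reads decide the values.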
